A study of Mus musculus with 4 samples.

Results

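The data are the 2774 sites called for NF-YB in mouse embryonic stem cells, of 10091 sites in the 3 lists of the series. All sites of the list entered, with no further selection. The assay was ChIP-seq, chromatin immunoprecipitation followed by sequencing, in which DNA crosslinked to a protein is recovered with an antibody and sequenced. The cells were E14Tg2a, a line of 129/Ola origin from a male embryo, with no knockdown or other genetic change named for these libraries. They were at passages 20 to 35 and grew for the experiment in serum medium with leukaemia inhibitory factor. Chromatin was fixed with 1% formaldehyde for 10 min, sheared to about 200 to 500 bp and precipitated with 2 µg of a rabbit polyclonal antibody to NF-YB. The comparison sample was input DNA of the same line, carried through with no antibody. There was 1 NF-YB library and 1 input library, so no value below has a replicate check and no difference was tested.

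NF-YB is a subunit of the transcription factor NF-Y. Its histone-fold domain pairs with that of NF-YC, and the resulting dimer resembles the H2A-H2B pair of the nucleosome. NF-YA then joins and supplies the contact with the CCAAT box, a short element common in promoters, among them those of cell-cycle genes. The dimer itself grips the flanking DNA through its backbone without reading its sequence. No value in the list identifies the precipitated protein, and mm9 sequence and annotation were not used here, so sites are given by position and no CCAAT box or gene is assigned to them.

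Of the 18821206 NF-YB tags given to the caller, it kept 13859303 (73.6%). Kept tags were split evenly over the strands, with 6929537 on the sense and 6929766 on the antisense strand. The input library held 13767116 tags, close to the number of NF-YB tags kept but below the number before that selection. The caller scaled by the kept tags, so a fold over input was close to a plain ratio of tags. The ratio of kept NF-YB tags to input tags was 1.01, against 0.834 for NF-YA and 0.827 for NF-YC. Spread evenly over the part of the genome that the caller took as mappable, the input amounted to 1.45 tags per NF-YB fragment length of 224 bp. Few input tags thus stood behind each site, and the NF-YB tags were the better counted part of every fold.

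NF-YB sites ranged widely in tags. The weakest site held 15 tags, the median site 43 and the strongest 351, with quartiles at 25 and 75 tags. At the low end, 120 sites (4.33%, exact 95% binomial interval 3.60 to 5.15) stood at exactly the minimum of 15 tags and 411 sites held under 20. The list thus stopped where sites were still frequent. At the high end, 427 sites (15.4%, 14.1 to 16.8) held 100 tags or more and 67 held 200 or more. The 277 strongest sites, those of 124 tags or more, carried 29.4% of all tags assigned to sites. The upper 1387 sites carried 77.8% of them.

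Tags were less concentrated in the NF-YC list and slightly more so in the NF-YA list. The strongest 10% of sites carried 25.6% of site tags for NF-YC and 31.5% for NF-YA. Sites of 200 tags or more numbered 93 for NF-YA and 2 for NF-YC, whose libraries had fewer kept tags. Their share of the list was 2.42% for NF-YB (1.88 to 3.06), 2.00% for NF-YA (1.62 to 2.45) and 0.0748% for NF-YC (0.00906 to 0.270). This limit was in raw tags, not scaled to kept tags. Per 1000000 kept tags, the median site held 3.10 tags for NF-YB, 2.96 for NF-YA and 3.16 for NF-YC. The scaled medians of the lists therefore lay close together. In raw tags, the share of the strongest sites was similar for NF-YB and NF-YA and lower for NF-YC. No test between the lists was possible with 1 library each.

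The 10 NF-YB sites with most tags were spread over 7 chromosomes and were all 40 or 60 bp wide. Chromosome 11 carried the strongest, at 119960091 to 119960131 (mm9), with 351 tags and a fold of 87.2. Chromosome 15 held 3 of the 10. These lay at 76181611 to 76181671 (308 tags), 102236411 to 102236451 (282 tags) and 80541591 to 80541631 (277 tags). Tags differed little among these 3, whereas their folds were 306, 70.0 and 34.4. The difference followed the input, which was recovered as 1, 4 and 8 tags.

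The remaining sites of the 10 showed the same separation of tags from fold. Chromosome 7 at 75894311 to 75894351 held 305 tags at a fold of 60.6, and chromosome 2 at 158593711 to 158593751 held 304 tags at a fold of 151. These sites differed by 1 tag, and the folds rested on 5 and 2 input tags. Chromosome 8 at 23916231 to 23916271 (303 tags, fold 50.2) and chromosome 12 at 72116771 to 72116811 (288 tags, fold 57.2) followed. Chromosome 6 carried the last of the 10, at 49159111 to 49159151 (272 tags, fold 90.1) and 125095171 to 125095211 (271 tags, fold 53.8). By fold, these 10 sites ranked between 1 and 480 in the list.

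Fold over input had a median of 16.9, with quartiles of 10.9 and 27.3. The highest was 306 and the lowest 7.06, just above the caller's minimum of 7. Folds of 100 or more were reached by 56 sites (2.02%, 1.53 to 2.61) and folds under 8 were listed for 230 sites (8.29%, 7.29 to 9.38). The 230 sites with a fold under 8 had a median of 22 tags (range 15 to 70). Under 20 tags were held by 105 of them (45.7%, against 14.8% of the whole list). The 2 lowest folds belonged to sites of more tags than that: chromosome 2 at 152657151 to 152657191 had a fold of 7.06 with 64 tags, and chromosome 5 at 126052571 to 126052611 a fold of 7.08 with 57 tags. Both had much input, with 9 and 8 tags recovered. Sites of low fold thus included many near the limit of tags and some well above it. Near that limit few folds are possible, and 15 tags over 2 input tags give 7.45.

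The local input could be read back from the list. The scale of a fold was the ratio of kept NF-YB tags to input tags. At 2682 sites (96.7%) the fold equalled, within its rounding of 0.005, the site's tags over a whole input count times that ratio. This whole number was 1 at 673 sites, 2 at another 673, 3 at 491, 4 at 348 and 5 or more at 497 (18.5%, 17.1 to 20.1). Its mean was 2.96 and its median 2. The highest was 15. A value of 1 was the lowest that could be found, and a site with no input tag at all may be among these 673. The sources used here do not give the stretch of DNA over which input was counted.

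The recovered numbers repeated between lists that were called separately against the same input library. Among the 274 NF-YB sites whose centre coincided exactly with that of an NF-YA site, 235 (85.8%) gave the same input count and 272 gave one within 1 tag. For NF-YC the corresponding numbers were 171 and 194 of 199 sites. No site differed by more than 2 tags. Since the input library is shared, this checks the reading of the folds and not the input itself.

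**Figure D1:**
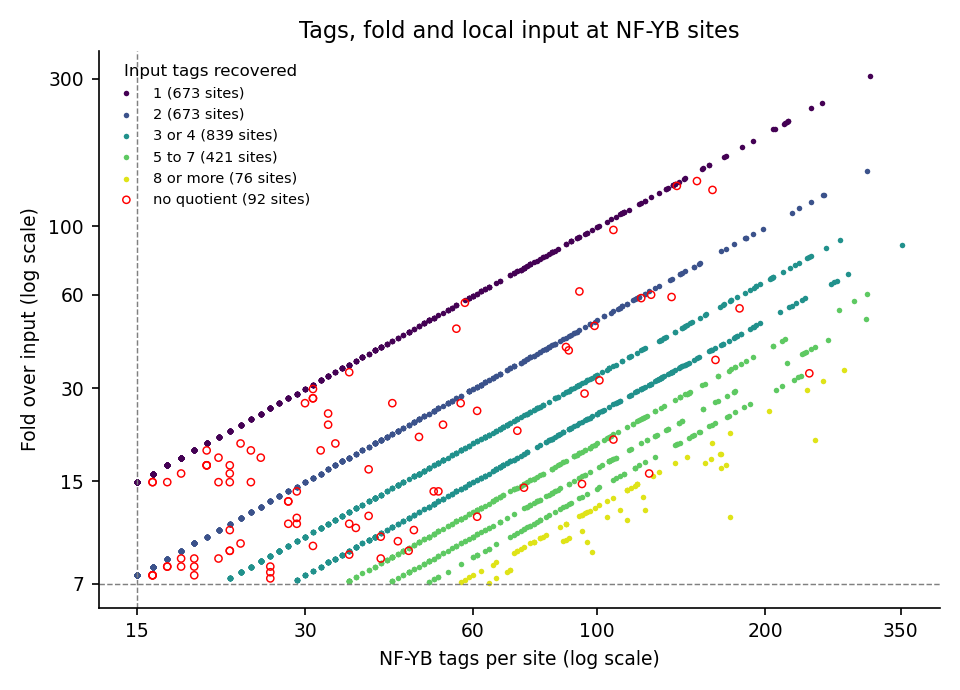
Tags (horizontal, log scale) and fold over input (vertical, log scale) of all 2774 NF-YB sites, 1 point per site, coloured by the recovered number of input tags. The 2682 sites with a recovered number fall on separate lines, 1 line per input count; the 92 open red circles are sites whose fold matched no such number, and dashed lines mark the minimum of 15 tags and the minimum fold of 7.

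Input set much of the order of NF-YB sites by fold. Across the 2682 sites, fold rose with tags (Spearman's rank correlation 0.53) and fell with input (-0.38). These correlations run over sites of 1 library pair, fold is computed from both other quantities, and none carries a test. Of the 100 sites with most tags, 29 were also among the 100 with the highest fold. An input count of 1 was found at 76 of the 96 highest-fold sites with a recovered number, but at 12 of 98 among the sites with most tags. Mean input was 1.28 tags for the former and 3.96 for the latter.

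The sites of highest fold all had an input count of 1. After the chromosome 15 site with 308 tags came chromosome 1 at 39950151 to 39950191 (253 tags, fold 251) and chromosome 11 at 55283011 to 55283051 (242 tags, fold 240). Next were chromosome 17 at 33897451 to 33897491 and chromosome 9 at 62497391 to 62497531, each with 220 tags and a fold of 219. The chromosome 9 site was the only wide one of the 5, at 140 bp. Counting error was large for all of them, since 1 input tag carries little information. The exact 95% interval of the fold ran from 54.5 to 12123 for the first and from 38.8 to 8670 for the last. These intervals cover counting error only and take the input as 1 counted tag. Where a count of 1 stood for no input tag, the upper bound would not hold.

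Strong sites over a high input stood at the other end. Chromosome 10 at 79317251 to 79317291 held 246 tags, the rank of 20 by tags, but had 12 input tags and a fold of 20.4 (interval 11.4 to 39.95), the rank of 1055. Among the 100 sites with most tags, the next lowest folds were 25.2 on chromosome 8 at 86590591 to 86590631 (203 tags) and 26.0 on chromosome 14 at 56179691 to 56179731 (183 tags). The 5 lowest were completed by sites on chromosome 17 at 46689811 to 46689871 (188 tags, fold 26.7) and chromosome 3 at 96361751 to 96361811 (177 tags, fold 29.3). Their recovered inputs were 8, 7, 7 and 6 tags. All 5 still lay above the median fold of the list.

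The highest input of any NF-YB site was 15 tags, on chromosome 11 at 85166611 to 85166651, beneath 173 NF-YB tags. Its fold of 11.5 had the narrow interval of 6.76 to 20.9. Chromosome 12 at 76770511 to 76770551 had 11 input tags and 98 NF-YB tags (fold 8.85). Of the 5 sites at 10 input tags, those with most tags lay on chromosome 2 at 34627431 to 34627471 (170 tags, fold 16.9) and chromosome 11 at 69485971 to 69486011 (167 tags, fold 16.6). All sites with 10 or more input tags were 40 bp wide, but they were few, with 5 at 10 tags and 1 each at 11, 12 and 15. These sites held between 96 and 246 tags. Of all NF-YB sites, 71.7% were 40 bp wide at 87 to 123 tags and 78.5% at 124 tags or more. So few sites of high input cannot be set apart from those shares.

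The precision of a fold depended mainly on its input. The upper bound of the 95% interval was a median of 250 times the lower bound at sites with 1 input tag. It was 34.0 times at 2, 7.82 times at 5 and 4.89 times at 8. Some counts of 1 may stand for no input tag, and there the upper bound would not hold. Over all 2682 sites, the lower bound exceeded the list's median fold of 16.9 at 141 sites, and the upper bound fell below it at 2. For most sites of the list, the side of the median fold on which they lay could not be told at this depth. At 772 sites (28.8%) the lower bound was itself 7 or more, the caller's minimum fold.

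Tags and input rose together over the list, with a lower edge at the caller's limits. Spearman's rank correlation between tags and input was 0.54. A minimum fold of 7 asks for more tags where input is higher. The lowest tag count seen was 15 at 1 or 2 input tags, 22 at 3, 29 at 4, 36 at 5 and 57 at 8. Among the 744 sites of 71 tags or more with up to 10 input tags, where the minimum fold removes no site, the correlation was 0.046. The corresponding values were 0.09 over 1257 sites for NF-YA and 0.11 over 662 sites for NF-YC. Among these 744 sites, input therefore hardly moved with NF-YB tags. They span a narrower range of tags and input than the whole list, which can itself lower a rank correlation. The part of the fold limit in the value of 0.54 was not tested.

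When the list was divided by tags into 10 groups of like size, the median fold did not rise steadily. It was 14.9 in the group with fewest tags (15 to 17) and 17.9 in the next (18 to 22), where 53.9% and 54.8% of sites had an input count of 1. It then fell to 11.9 at 23 to 27 tags, where that share was 32.0%, and stood at 14.9 again at 43 to 52 tags. Only the upper part of the list separated clearly, with 25.3 at 87 to 123 tags and 42.5 at 124 tags or more. Mean input rose from 1.46 tags in the lowest group to 4.29 and 4.19 in the upper pair of groups.

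**Figure D2:**
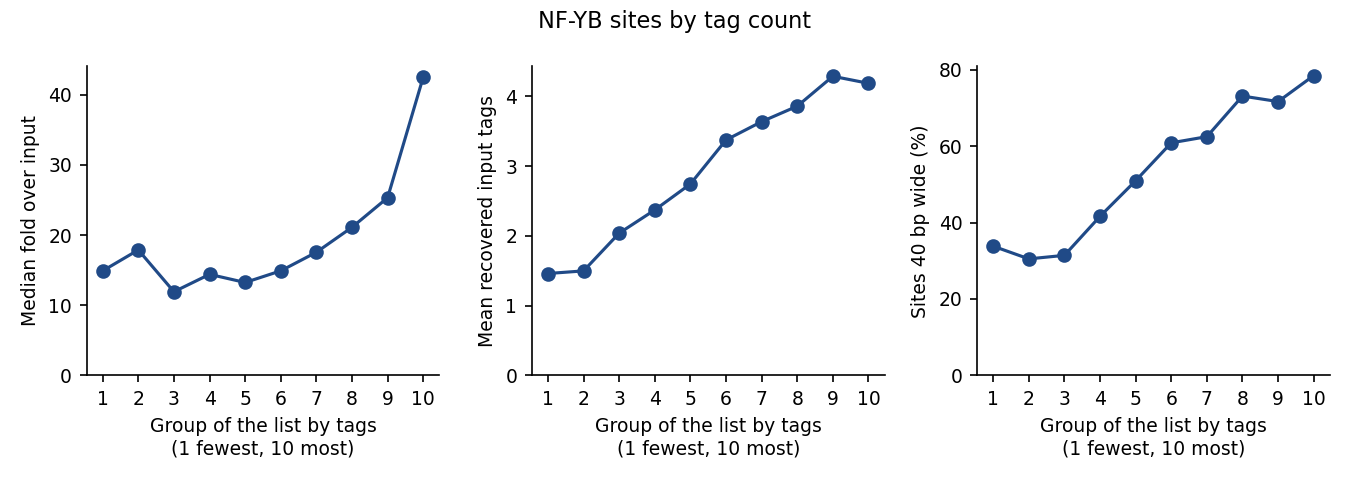
NF-YB sites divided into 10 groups by tag count (horizontal, 1 fewest and 10 most; between 259 and 305 sites each). Panels show the median fold over input, the mean number of recovered input tags and the percentage of sites 40 bp wide; the fold stays between 11.9 and 17.9 in the groups numbered 1 to 7, while input and the share of narrow sites rise across most of the range.

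NF-YB sites were narrow. The list placed sites on a grid of 20 bp, the caller's scanning window, and the smallest width in it was 40 bp. At 40 bp stood 1484 sites (53.5%, 51.6 to 55.4), and a further 665 (24.0%) were 60 bp wide. Widths over 100 bp were found at 344 sites (12.4%, 11.2 to 13.7) and widths over 200 bp at 54 sites. Narrow sites held more tags: the median was 56 tags at 40 bp, 37 at 60 bp, 25 at 80 bp, 30 at 100 bp and 25 at 120 to 200 bp. The 54 widest sites did not continue this decline, with a median of 40.5 tags.

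The share of 40 bp sites rose along the list, from 33.8% in the group with fewest tags to 78.5% in the group with most. Fold changed less with width, with medians of 17.9 at 40 bp, 15.9 at 60 bp and 14.9 at 80 bp. It did not fall steadily, with 15.7 at 100 bp, 15.6 at 120 to 200 bp and 17.9 over 200 bp. The rank correlation with width was -0.37 for tags and -0.15 for fold. Mean input was 3.32 tags at 40 bp, 1.97 at 120 to 200 bp and 2.42 over 200 bp. Input was recovered at 229 of 290 sites of 120 to 200 bp and 38 of 54 sites over 200 bp. Width, tags and input are outputs of the same run of the caller, and their relation has no independent measurement here.

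**Figure D3:**
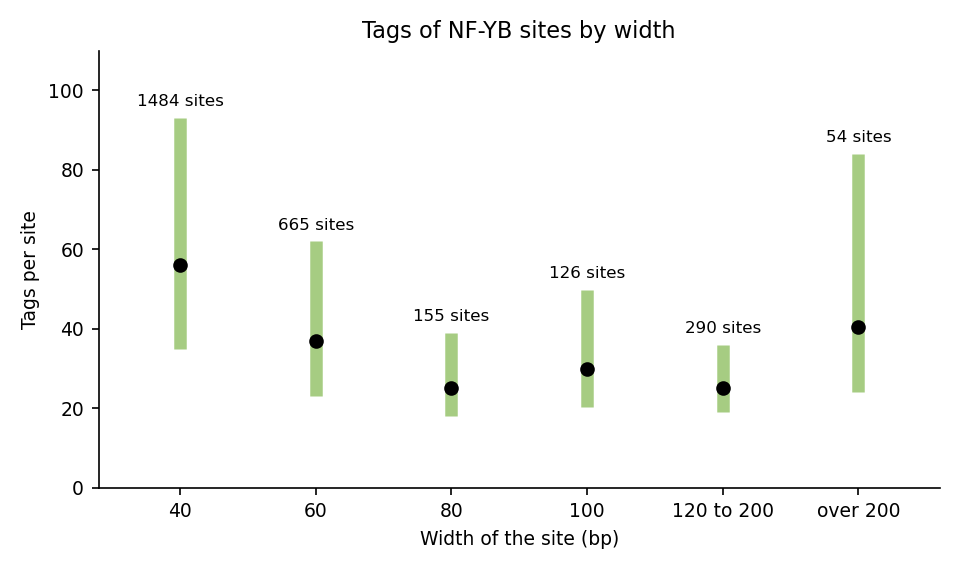
Tags per NF-YB site (vertical) by width of the site in bp (horizontal). Points are medians, bars span the quartiles, and the number of sites is printed above each bar; the median falls from 56 tags at 40 bp to 25 at 80 bp and stands at 40.5 for the 54 sites over 200 bp.

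The NF-YB list held a larger share of the narrowest sites than the other lists. The share of 40 bp sites was 53.5% for NF-YB, 40.05% (38.6 to 41.5) for NF-YA and 42.8% (40.9 to 44.7) for NF-YC. At 30 to 49 tags it was 50.5% (46.7 to 54.3) for NF-YB, 36.5% (33.6 to 39.4) for NF-YA and 40.4% (36.8 to 44.0) for NF-YC. At 50 to 99 tags it was 66.7% (63.2 to 70.0), 51.5% (48.4 to 54.7) and 57.7% (54.0 to 61.4). At 100 tags or more it was 77.8% (73.5 to 81.6), 69.9% (66.0 to 73.6) and 66.8% (59.7 to 73.4). There the NF-YB and NF-YA intervals overlapped slightly. At 20 to 29 tags the lists lay closer, with 32.8% (28.7 to 37.2), 27.2% (24.4 to 30.1) and 31.3% (27.5 to 35.2) and overlapping intervals. Intervals also overlapped at 15 to 19 tags, with 33.1% (28.6 to 37.9), 26.6% (23.5 to 29.8) and 26.5% (22.0 to 31.4). The intervals cover counting over sites only, and the ranges are raw tags of libraries that differed in kept tags. The antibodies and fragment lengths differed too (NF-YB 224 bp, NF-YA 234 bp, NF-YC 238 bp). The part of these differences in the widths was not tested.

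The widest NF-YB sites were mixed in strength. Chromosome 6 at 52028551 to 52029131 was the widest, at 580 bp, with only 24 tags and a fold of 14.9. Chromosome 17 at 85356591 to 85357131 spanned 540 bp with 120 tags and a fold of 119. A site on chromosome Y, at 2862191 to 2862711, spanned 520 bp with 44 tags and a fold of 9.60. Chromosome 10 at 79834091 to 79834571 (480 bp, 43 tags, fold 26.8) and chromosome 19 at 8893991 to 8894431 (440 bp, 77 tags, fold 25.5) came next. The chromosome 19 site was 1 of 3 sites of 440 bp and was named for having most tags. These 5 sites ran from rank 297 to rank 2112 by tags.

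At some wide sites the listed fold did not belong to the listed tags. For 92 sites, all of 80 bp or more, no whole input count gave the fold from the site's own tags, while all 2149 sites up to 60 bp did. These 92 made up 14.7% of the 625 sites over 60 bp. At each of the 92 the fold equalled a smaller whole tag number over a whole input count of at most 7. On chromosome 6 the 580 bp site had a fold of 14.9, which is 15 tags over 1 input tag, beside its listed 24 tags. On chromosome 10 the 480 bp site had a fold of 26.8, which is 27 tags over 1, beside its listed 43. A fold computed from the listed tags would therefore differ from the listed fold at these sites, and their input is not given here.

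Neighbouring NF-YB sites were usually far apart. The median distance between neighbouring centres on a chromosome was 228 kb over 2753 neighbouring pairs, with quartiles of 66.2 and 818 kb. The longest stretch without a site was 22.7 Mb, on chromosome 1 between 97564231 and 120285511. The next stretches were both on the X chromosome, with 21.1 and 20.7 Mb. The spacing was much like that of NF-YC, with a median of 240 kb, and wider than that of NF-YA, with 143 kb over its longer list.

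**Figure D4:**
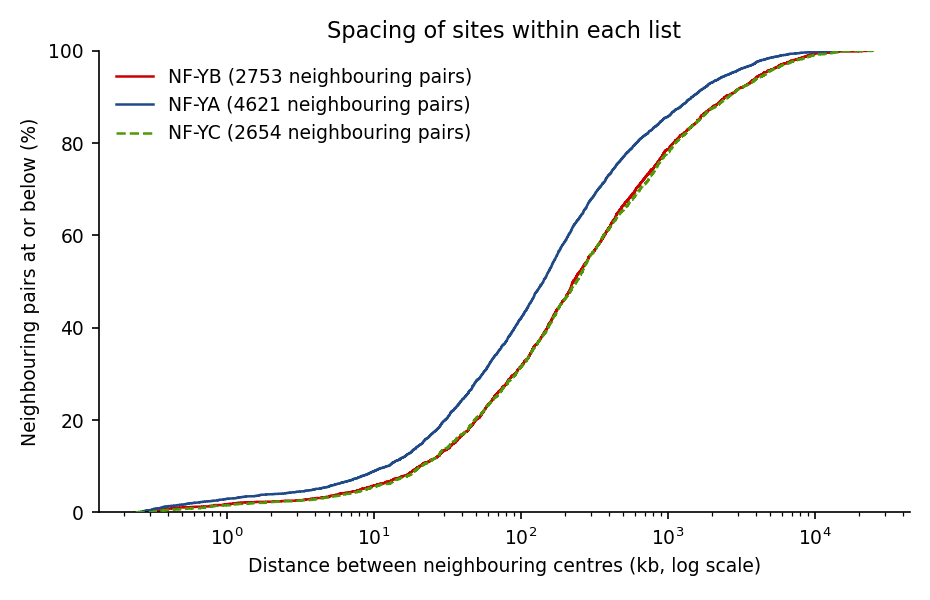
Cumulative percentage of neighbouring pairs of sites (vertical) by the distance between their centres in kb (horizontal, log scale), for the NF-YB (red), NF-YA (blue) and NF-YC (green, dashed) lists. The NF-YB and NF-YC curves lie almost on each other, with 31.6% and 31.3% of pairs within 100 kb, and the NF-YA curve is shifted to shorter distances, with 42.0%.

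Close pairs were few but not evenly spaced. Within 1 kb lay 49 pairs (98 sites, 3.53% of the list) and within 10 kb 159 pairs (302 sites, 10.9%). Of the pairs within 1 kb, 4 were under 300 bp apart, 18 from 300 to under 400 bp and 8 from 400 to under 500 bp. Each later step of 100 bp up to 1000 bp held between 2 and 5 pairs, and 1 pair lay at exactly 1000 bp. The shortest distance was 240 bp, as in the other lists, just above the fragment lengths of 224 to 238 bp. Whether the caller could list closer pairs was not tested, so the counts do not show a preferred spacing. With sites wider than 60 bp left out, 26 pairs lay within 1 kb.

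Close partners often differed in tags, as did neighbours farther apart. In the 49 pairs within 1 kb the stronger site had a median of 81 tags and the weaker 33, and the median ratio was 2.31. The ratio was 2 or more in 33 pairs and under 1.5 in 8. Among the 2594 neighbouring pairs over 10 kb apart the medians were 66 and 28 tags, the median ratio was 1.92, and the ratio was 2 or more in 1250. Sorting each pair by tags makes a ratio above 1 in every case, and the difference between close and far pairs was not tested. Sites of these pairs had a median of 50.5 tags (95% interval 41 to 63) and the other 2676 sites 42 (41 to 44), so the intervals overlapped. Their median folds were 18.05 and 16.9.

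The closest pairs show the range of such partners. The closest lay on chromosome 11 at 69445951 to 69445991 (15 tags) and 69446191 to 69446231 (81 tags), 240 bp apart. The pair on chromosome 7 at 52241811 to 52241851 (173 tags, fold 57.3) and 52242091 to 52242131 (73 tags, fold 9.06) lay 280 bp apart. Here tags differed 2.37-fold but the folds more. Pairs 280 bp apart were also found on chromosome 16 at 90144191 to 90144231 (44 tags) and 90144471 to 90144511 (79 tags), and on chromosome 14 at 32454131 to 32454271 (40 tags) and 32454451 to 32454511 (18 tags). Chromosome 17 held a pair 300 bp apart at 34740711 to 34740751 (193 tags) and 34741011 to 34741051 (54 tags).

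Runs of 3 or more sites, each within 10 kb of the next, numbered 11 and held 38 sites, while 132 runs were pairs. The longest run lay on chromosome 13 from 23830651 to 23854311, with 7 sites in 23.7 kb. Along the chromosome they held 15, 63, 86, 122, 90, 42 and 185 tags. The strongest site thus stood at one end of the run and the weakest at the other. Also on chromosome 13, from 23663131 to 23673331, 4 sites held 130, 223, 84 and 18 tags. Mouse chromosome 13 carries the largest cluster of replication-dependent histone genes, but the sites were not assigned to genes here.

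The other runs held 3 sites. Their leader in tags was on chromosome 11 from 96684191 to 96691431, with 37, 156 and 107 tags. It was followed by chromosome 10 from 79622731 to 79635971 (149, 74 and 62 tags) and chromosome 13 from 21808151 to 21813811 (41, 146 and 40 tags). Chromosome 13 therefore held 3 of the 5 runs with most sites and tags. It had only 104 NF-YB sites in all, with a density of 0.908 per Mb against 1.10 over all chromosomes.

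NF-YB sites were most numerous on chromosome 7 (257 sites), chromosome 11 (244) and chromosomes 2 and 5 (196 each). By density between its own outermost sites, chromosome 11 stood first with 2.06 sites per Mb, followed by chromosome 19 with 1.98, chromosome 17 with 1.74 and chromosome 7 with 1.72. Chromosome 14 was the sparsest autosome with 0.680 and the X chromosome the sparsest of all with 0.364. Median tags per autosome ran from 36 on chromosomes 5 and 16 to 51.5 on chromosome 17. Median folds varied less, from 15.2 on chromosome 14 to 17.9 on chromosomes 8 and 9.

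The X chromosome had fewer NF-YB tags and less input per site, with the same median fold over all sites. Its 58 sites had a median of 30 tags (95% interval 23 to 36), below the lowest autosome, and the 2713 autosomal sites a median of 43 (41 to 45). Mean recovered input was 1.95 tags on the X against 2.98 on the autosomes, whose means ran from 2.69 to 3.30. An input count of 1 was found at 44.6% of X sites (25 of 56, 31.3 to 58.5) and 24.7% of autosomal sites (23.0 to 26.4). The median fold was 16.9 on both. Only 1 X site (1.72%, 0.0436 to 9.24) reached 100 tags, with 115, against 426 autosomal sites (15.7%, 14.4 to 17.1).

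Within each range of tags compared, mean input was lower and median fold higher on the X. At equal tags a lower input gives a higher fold by construction. At 15 to 29 tags mean input was 1.44 on the X (27 sites) and 1.71 on the autosomes, and median fold 14.9 and 12.9. At 30 to 49 tags mean input was 2.45 (22 sites) and 2.80, and median fold 18.4 and 14.9. From 50 tags upward mean input was 2.29 (7 sites) and 3.98, and median fold 28.6 and 24.8. In this last range tags were not alike, since X sites reached at most 115 tags and autosomal sites 351. These differences in fold were not tested. A male line has 1 X and a pair of each autosome, and the part of copy number in these values was not tested.

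For tags and input over all sites, the same direction was seen in the lists of the other subunits. Median tags were 26.5 on the X and 35 on the autosomes for NF-YA, and 22 and 37 for NF-YC. Mean recovered input was 2.02 and 3.08 for NF-YA, and 1.82 and 3.23 for NF-YC. Median folds over all sites differed from the NF-YB pattern, in which both were 16.9. On the X they were 20.4 for NF-YA and 18.1 for NF-YC, against 16.8 and 16.3 on the autosomes. The lists share the input library, so their input values are not separate evidence. Chromosome Y held 3 NF-YB sites, of 22, 33 and 44 tags. Those of 33 and 44 tags were 440 and 520 bp wide.

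**Figure D5:**
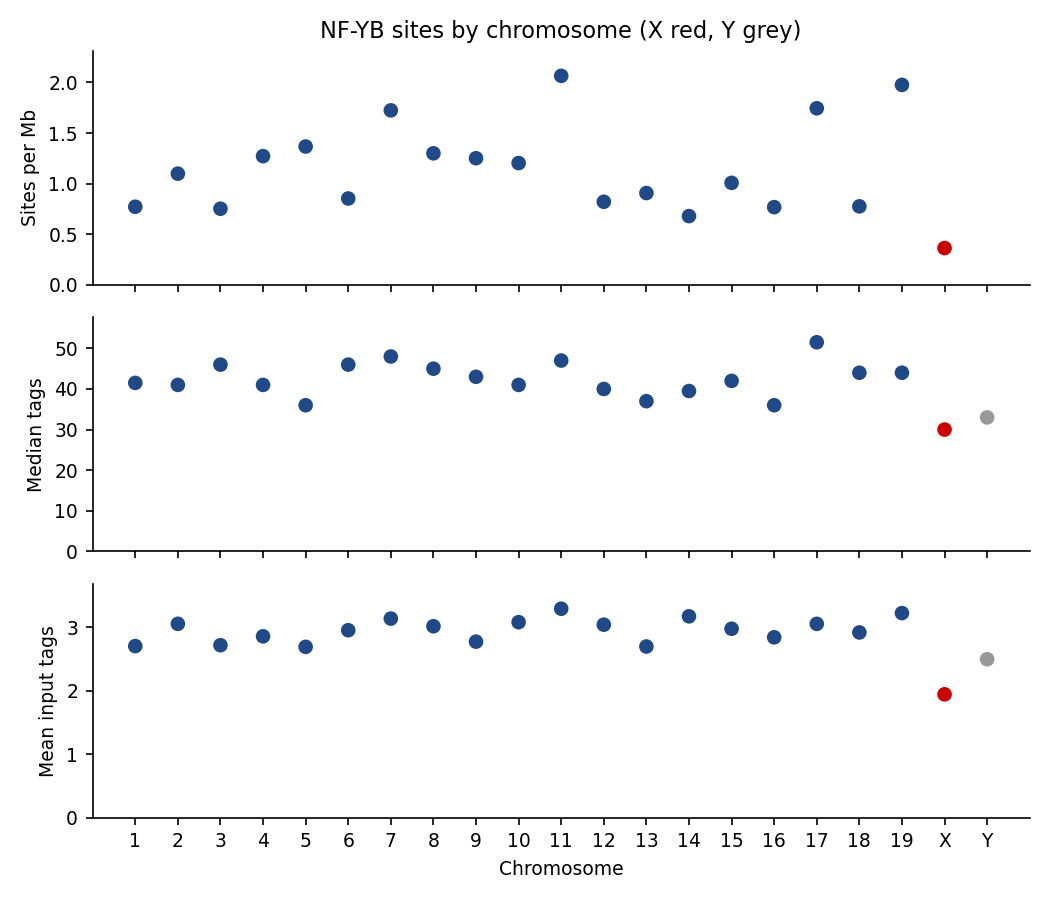
NF-YB sites per Mb between the outermost sites of a chromosome, median tags per site and mean recovered input tags per site (vertical, from top to bottom) for each chromosome (horizontal), with the X in red and the Y in grey. The X has the lowest value in every panel (0.364 sites per Mb, 30 tags and 1.95 input tags); the density of the Y is not drawn because its 3 sites span only 2.28 Mb.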

How the data were processed

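Per the submitters' processing notes, Bowtie aligned the reads to mm9. The authors called sites with SISSRs 1.4 in each library against the input, per the file headers (e-value 10, p-value threshold 0.001, window 20 bp, mappable fraction 0.80, 1 tag kept per position, at least 2 directional tags on each side, at least 15 tags and a fold of 7.00). The deposited tag counts are whole tags per site, not normalized. The deposited fold is a ratio of site tags to scaled input tags, and the deposited p-value, which never rose with the fold, was used only to filter in an alternative.

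Width was end minus start and spacing the distance between midpoints of neighbouring sites. Input was recovered as a whole number from tags and fold (tolerance 0.005). Shares and folds carry exact 95% binomial intervals (for a fold, of tags among tags plus input) and medians carry order-statistic intervals, all for counting error only. Nothing was tested, since each list has 1 library. Named sites follow a rule: the 10 with most tags, the 5 of highest fold, the 5 of lowest fold among the 100 with most tags, the 5 of highest input, the 5 widest, the 2 of lowest fold, the 5 closest pairs and the 5 largest runs. The X and Y values, the widths at like tags, the smaller quotients, the low folds by tags, the far neighbours and the tags above the fold limit were chosen after seeing values. The list, measures and rule were chosen with earlier results of these data known. Functions were tested on simulated data. Python 3.11.15, matplotlib 3.10.9, pandas 2.3.3, scipy 1.17.1 and numpy 2.4.6 were used. CCAAT boxes and gene starts were not examined because mm9 sequence and annotation were not used here.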

Additional observations from a re-analysis of the deposited data

How the results depend on the processing

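Of 46 alternative values, 23 stayed and 23 moved. Staying meant within the interval of the reported value, for counts and ratios within 1.5 times and for correlations within 0.1. A reversal could be recorded only for correlations and for the ratios of autosomes to X, and none of these reversed. Stricter lists moved values by construction. With the authors' p-value at or under 1e-05, 233 sites remained, with a median of 117 tags, a median fold of 73.5, 61.4% at an input count of 1, 69.5% at 40 bp, 0 pairs within 1 kb, 1 pair within 10 kb and a rank correlation of tags and fold of 0.34. With at least 20 tags the values were 50 tags, a fold of 18.4, 19.9% at input 1 and 57.0% at 40 bp. With a fold of at least 10 they were 51 tags, a fold of 19.9, 32.0% at input 1, 56.5% at 40 bp, 30 pairs within 1 kb and 99 within 10 kb. Without sites wider than 60 bp they were 49 tags, a fold of 17.3, 21.5% at input 1, 26 pairs within 1 kb and 103 within 10 kb. The rank correlation of tags and input dropped to 0.046 above the reach of the fold limit, an alternative chosen after seeing the data, as were those for the X chromosome. There the autosomal mean input stayed 1.51 to 1.68 times and median tags 1.35 to 1.5 times those of the X. These alternatives did not match X and autosomal sites by tags. Mean input on the X and the autosomes was 1.44 and 1.71 at 15 to 29 tags, and 2.45 and 2.80 at 30 to 49. From 50 tags upward it was 2.29 (7 X sites) and 3.98, where tags were not alike. Leaving out the sex chromosomes, a tolerance of 0.01 and distances between facing ends moved no value past its bound. The alternatives on CCAAT boxes and gene starts were not run. No paired analysis was possible because each list has 1 library. Sites under 15 tags are missing from the list, which does not show that NF-YB was absent there.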

Other observations

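Wide sites whose listed fold did not belong to their listed tags occurred in every list of the series. They numbered 348 of 1633 sites over 60 bp for NF-YA (21.3%) and 137 of 848 for NF-YC (16.2%), beside 92 of 625 for NF-YB. At each of these sites the fold equalled a smaller whole tag number over a whole input count, of at most 8. With the lowest such input count, this count was 1 at 62 of the NF-YB sites, 230 of the NF-YA sites and 84 of the NF-YC sites. Taking the lowest count favours 1, because a multiple of both numbers gives the same fold. These counts are therefore not the input of the sites. The listed tags of the NF-YB sites had a median of 31.5 (range 16 to 240).

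The deposited p-value was listed as 0 for 29 NF-YB sites, all with a fold of 135 or more, and its highest value was 8.6e-04.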
